A study of Homo sapiens with 33 samples.

Results

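RNA levels of human embryonic stem cells (hESCs) that carried an EZH2 transgene on a null background were compared with those of hESCs with 1 intact EZH2 allele. EZH2 is the main catalytic subunit of Polycomb Repressive Complex 2 (PRC2), which places the repressive mark H3K27me3 on nucleosomes around the start sites of silent developmental genes, and EED and SUZ12 are the subunits without which it has no activity. In hESCs many of these start sites also carry H3K4me3, a mark of promoters that are active or poised. Levels are given in RPM, the reads of a gene scaled to the reads of its library. The table lists 35805 genes. Of these, 14917 were counted, namely those on autosomes whose average over the 12 RNA libraries reached 1 RPM. This rule used no difference between genotypes, but it was set with earlier results of these data known. A gene nearly silent in 1 genotype could pass it through the others.

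All libraries came from H9, an established hESC line kept on irradiated mouse feeder cells, and RNA was taken from cells sorted for the surface antigen SSEA4. The comparison set 3 libraries labelled EZH2-/- +EZH2 (EZH2-restored cells) against 3 libraries labelled EZH2-/+ (heterozygous cells), and the other 6 RNA libraries, 3 of EZH2+/+ and 3 of EZH2-/- cells, shared the estimate of the spread. The EZH2-/+ line was made by CRISPR/Cas9 in H9, and the EZH2-restored cells descended from such a line that received a doxycycline-inducible EZH2 transgene by piggyBac transposition, a plasmid for the transactivator and puromycin selection before its other allele was targeted. They were EZH2-/- cells in which doxycycline switched the transgene on. The lines were clonal. The inserted plasmids, their induction and the clone therefore went together with the EZH2 level and cannot be told apart from it in these libraries. Reads assigned to genes numbered 26068547, 30130122 and 36589089 in the EZH2-/+ libraries and 25346801, 22998406 and 16587860 in the EZH2-restored libraries, and the library totals behind RPM, recovered from the deposited values, were 40841018 to 56209162 in EZH2-/+ and 25019064 to 38886808 in EZH2-restored libraries, at which 3 reads correspond to between 0.0534 and 0.120 RPM. In both genotypes replicate 3 stood apart from the other two: a chi-square per gene of 25.9 between EZH2-/+ replicates 1 and 2 compared with 152 and 150 against replicate 3, and in EZH2-restored cells 15.1 compared with 79 and 61.5. P-values measure the spread between these libraries only, and differences in bulk RNA cannot separate fewer cells of a type from less RNA per cell.

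EZH2 RNA (chr7:148807383-148884321, minus strand) was far above the heterozygous level in every restored library. It stood at 55.4, 52.3 and 45.7 RPM in the EZH2-/+ libraries and at 271, 385 and 256 RPM in the EZH2-restored libraries, with no overlap. The log2 fold change was 2.55 (SE 0.17), or 5.85-fold (limma, adjusted p = 1.29e-05), and it was called under all 17 alternative settings. In the other genotypes EZH2 was at 68.6, 63.3 and 59.5 RPM in EZH2+/+ and at 11.5, 8.65 and 9.68 RPM in EZH2-/- cells, so the restored cells exceeded every other library. A read on the transgene's coding sequence and a read on the endogenous gene are not distinguished in the gene counts. No other core PRC2 subunit passed the test. EZH1, the alternative catalytic subunit, was at 17.6, 19.1 and 25.9 RPM in EZH2-/+ and at 13.9, 13.5 and 15.3 RPM in EZH2-restored cells (log2 fold change -0.53, adjusted p = 0.267). EED differed by -0.20 (adjusted p = 0.591), SUZ12 by 0.02 (adjusted p = 0.986) and the histone-binding subunit RBBP4 by -0.01 on the log2 scale.

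**Figure D1:**
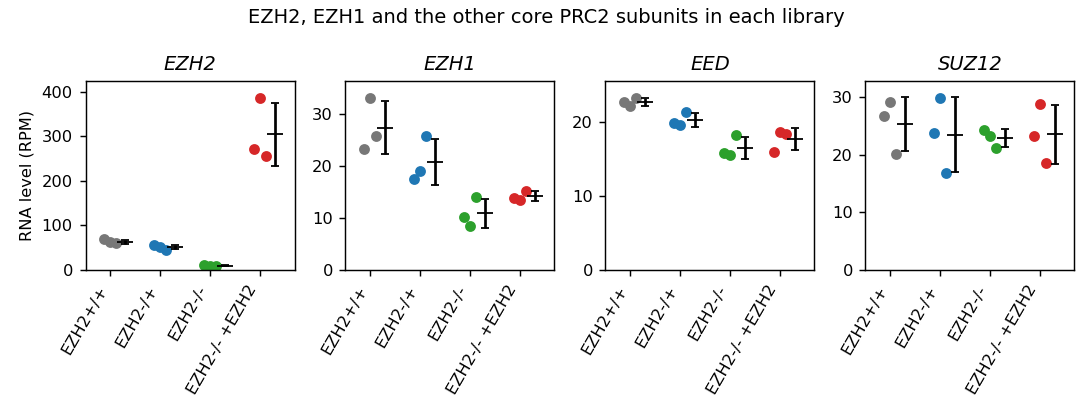
RNA level (RPM, vertical axis) of EZH2, EZH1, EED and SUZ12 in each of the 12 libraries, grouped by genotype on the horizontal axis. Coloured points are libraries, and the black bar beside them is the mean with its SD (n = 3). The 3 EZH2-restored libraries lie at 256 to 385 RPM for EZH2, and the EZH2-/+ libraries at 45.7 to 55.4 RPM.

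Few genes differed between the genotypes by the test over all genes. Of the 14917 genes, 142 were higher in EZH2-restored cells (0.952%) and 96 were lower (0.644%), 1.6% in all (limma on log2 RPM, Benjamini-Hochberg over the 20608 genes averaging 0.1 RPM or more, adjusted p under 0.05). At an unadjusted p under 0.05 the shares were 4.08% and 7.39%. These differences were large: 120 of the 142 higher and 69 of the 96 lower genes differed at least 2-fold, and the median size over the 238 called genes was 1.45 on the log2 scale. The median over all 14917 genes was -0.063, with quartiles of -0.249 and 0.105. In all 238 called genes the 3 libraries of one genotype lay entirely above the 3 of the other, which held for 15.9% of all 14917 genes (5.23% with EZH2-restored cells higher and 10.7% with them lower). Same-numbered libraries of both genotypes deviated together, and with the replicate number as a block 338 genes were higher (2.27%) and 506 lower (3.39%). These held every one of the 142 and of the 96. The split of calls moved with scaling: 59.7% of calls were higher in EZH2-restored cells on the deposited RPM and 70.9% (183 higher, 75 lower) after rescaling by the median ratio. With the block, on the deposited RPM, it was 40.1%. Leaving out single libraries lowered the counts to 47 higher and 23 lower without EZH2-restored replicate 1, to 50 and 26 without EZH2-restored replicate 2 and to 65 and 30 without EZH2-/+ replicate 1, whereas leaving out replicate 3 of both genotypes gave 170 and 89.

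**Figure D2:**
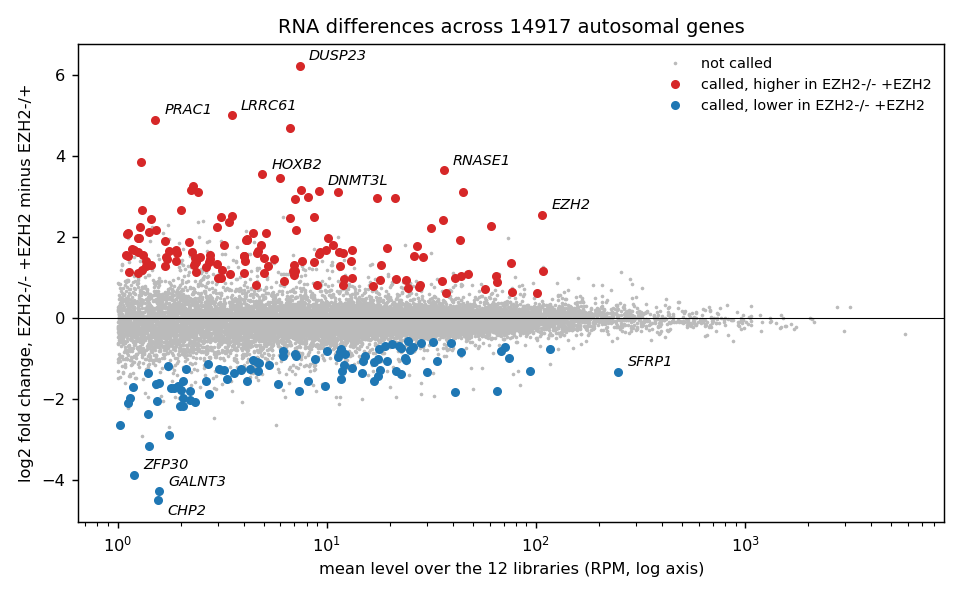
Log2 fold change between EZH2-restored and EZH2-/+ cells (vertical axis) against the mean level over the 12 libraries (RPM, log axis) for the 14917 genes. Red points are the 142 genes called higher, blue points the 96 called lower and grey points the genes that did not pass the test. Called genes reach from -4.51 (CHP2) to 6.24 (DUSP23).

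The largest increases were in genes that were nearly silent in heterozygous cells. DUSP23, which encodes a small dual-specificity phosphatase (chr1:159780932-159782543), was at 0.0245, 0.0216 and 0.0712 RPM in the EZH2-/+ libraries, 6 reads in all, and at 11.3, 9.11 and 10.5 RPM in the EZH2-restored libraries. Its log2 fold change of 6.24 (SE 0.23, adjusted p = 2.39e-08) was the largest of all 14917 genes. EZH2+/+ cells had DUSP23 at 5.13, 4.82 and 4.37 RPM and EZH2-/- cells at 12.8, 12.5 and 18.5 RPM, so EZH2-/+ was the one genotype in which it was nearly off. PRAC1, a small nuclear protein gene next to HOXB13 (chr17:48721719-48722522), had 1 read in the EZH2-/+ libraries together and 4.91, 2.14 and 2.88 RPM in the EZH2-restored libraries, a ratio of 486 with an exact 95% counting interval of 86.6 to 1.92e+04. At the other end stood GALNT3, a Golgi enzyme that starts mucin-type O-glycosylation (chr2:165747591-165794682), and ZFP30, a zinc finger protein gene (chr19:37613749-37692337). GALNT3 was at 1.45, 1.73 and 3.24 RPM in EZH2-/+ and had 1 read in the EZH2-restored libraries, a ratio of 227 in the other direction (interval 40.4 to 8.98e+03). ZFP30 was at 1.32, 1.60 and 1.73 RPM in EZH2-/+ and also had 1 read in EZH2-restored cells (ratio 159, interval 28.2 to 6.3e+03). The 3 ratios with 1 read on one side rest on pooled libraries and cover counting error only.

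The 250 bases before the RefSeq start sites of these 4 genes (GRCh38.p14), written in the direction of transcription, are shown because RNA and promoter marks both differ there. Capitals mark each CG dinucleotide, which reads the same on both strands.
DUSP23: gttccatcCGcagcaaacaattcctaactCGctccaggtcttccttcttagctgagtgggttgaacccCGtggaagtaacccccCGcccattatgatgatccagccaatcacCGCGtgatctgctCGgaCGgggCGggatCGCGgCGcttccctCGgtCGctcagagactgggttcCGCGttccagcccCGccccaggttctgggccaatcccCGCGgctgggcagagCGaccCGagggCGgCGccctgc
PRAC1: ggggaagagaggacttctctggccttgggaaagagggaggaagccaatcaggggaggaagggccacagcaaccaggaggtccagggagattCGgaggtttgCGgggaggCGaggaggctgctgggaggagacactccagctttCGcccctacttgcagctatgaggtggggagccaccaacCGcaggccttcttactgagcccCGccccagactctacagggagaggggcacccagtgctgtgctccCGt
GALNT3: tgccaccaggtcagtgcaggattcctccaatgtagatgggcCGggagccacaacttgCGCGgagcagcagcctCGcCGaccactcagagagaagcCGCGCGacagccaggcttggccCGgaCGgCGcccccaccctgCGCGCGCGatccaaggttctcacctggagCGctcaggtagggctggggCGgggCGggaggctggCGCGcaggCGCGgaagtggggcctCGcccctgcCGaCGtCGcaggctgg
ZFP30: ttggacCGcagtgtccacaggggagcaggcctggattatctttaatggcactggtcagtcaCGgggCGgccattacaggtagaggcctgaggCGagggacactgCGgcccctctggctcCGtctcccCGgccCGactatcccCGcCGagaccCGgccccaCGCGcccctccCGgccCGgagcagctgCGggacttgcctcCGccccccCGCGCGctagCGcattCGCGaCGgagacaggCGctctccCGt
The DUSP23 stretch (chr1:159780712-159780961, plus strand) holds 23 CG dinucleotides, the PRAC1 stretch (chr17:48722519-48722768, minus strand) 7, and the GALNT3 (chr2:165794248-165794497, minus strand) and ZFP30 stretches (chr19:37655466-37655715, minus strand) 26 each. Of 35116 RefSeq promoters of this length, 25.8% hold at least 23, 58.9% at least 7 and 19.6% at least 26. GALNT3 and ZFP30 were thus among the more CG-rich promoters. H3K4me3 in the deposited 5 kb window nearest to this start site was higher in EZH2-restored (5.18 RPM) than in EZH2-/+ cells (1.25 RPM) at DUSP23, and lower at GALNT3 (1.45 and 6.6 RPM) and at ZFP30 (1.35 and 14.1 RPM). Neither GALNT3 nor ZFP30 carried more H3K27me3 there in the restored cells, with 1.79 RPM compared with 2.78 RPM at GALNT3 and 2.91 RPM compared with 8.69 RPM at ZFP30. DUSP23, whose RNA was higher in the restored cells, had 2.38 RPM of H3K27me3 there compared with 1.4 RPM in EZH2-/+ cells. Input chromatin at DUSP23 was at 1.57 and 1.43 RPM in the same order. At PRAC1 H3K4me3 was 14.6 and 17 RPM, and it was H3K27me3 that differed, with 55.6 RPM in EZH2-/+ and 18.3 RPM in EZH2-restored cells.

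Among the other large increases, LRRC61, a leucine-rich repeat protein gene 1485 kb from EZH2 on chromosome 7 (between gene midpoints), was at 0.245, 0.194 and 0.089 RPM in EZH2-/+ and at 13.4, 10.4 and 4.52 RPM in EZH2-restored cells (log2 fold change 5.02, SE 0.42, adjusted p = 0.000111). It overlaps ZBED6CL, which also rose (3.86), and with counts that ignore strand reads in the shared stretch cannot be assigned to one of them. HRASLS5, a phospholipid-metabolizing acyltransferase, was at 0.0735, 0.0432 and 1.74 RPM in EZH2-/+ and at 8.61, 8.12 and 11.1 RPM in EZH2-restored cells. RNASE1, a secreted ribonuclease, went from 1.54, 7.09 and 6.51 RPM to 38.5, 50.6 and 80.2 RPM. Every restored library exceeded every heterozygous one at these genes, but the EZH2-/+ replicates of HRASLS5 and RNASE1 were spread widely among themselves. The zinc transporter SLC39A4 rose by 3.46 on the log2 scale, VAV1, a guanine nucleotide exchange factor of blood cells, by 3.27, NEURL1, a ubiquitin ligase, by 3.17, and SYT5, a synaptotagmin of vesicle release, by 3.16. DNMT3L, the cofactor of the de novo DNA methyltransferases, was at 0.392, 2.12 and 0.231 RPM in EZH2-/+ and at 5.12, 7.34 and 6.36 RPM in EZH2-restored cells (3.15, SE 0.56, adjusted p = 0.0101).

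Among the other large decreases, CHP2, a calcineurin B homologue, was at 1.00, 2.05 and 6.17 RPM in EZH2-/+ and had 1 read in the EZH2-restored libraries (ratio 341, interval 60.9 to 1.35e+04). EPHA3, an ephrin receptor, fell from 3.62, 1.25 and 2.61 RPM to 0.437, 0.188 and 0.839 RPM, and EFNA2, an ephrin ligand, from 3.06, 4.13 and 2.76 RPM to 0.771, 0.857 and 0.520 RPM. NETO1, an auxiliary subunit of glutamate receptors, fell from 2.89, 3.43 and 2.15 RPM to 0.334, 0.75 and 0.72 RPM. None of these groups overlapped. Among zinc finger genes, ZNF883 fell by 3.18 and ZNF415 by 2.90 on the log2 scale; ZNF415 (adjusted p = 0.04997) and the neuronal RNA-binding gene ELAVL2 (-2.17, adjusted p = 0.049) were called under only 3 and 2 of the 17 alternatives. The transcripts AP001347.6 (-2.65) and CTC-260E6.4 (-2.39) and PRSS3P2 (-2.05), a trypsinogen pseudogene whose reads may be shared with near-identical paralogues, completed the 12 largest decreases. Reads of ZFP30 may be shared with the overlapping ZNF781 and those of ZNF883 with ZFP37. Of the 24 genes with the largest changes, 10 were called under all 17 alternatives, 20 under at least 14, and none reversed.

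**Figure D3:**
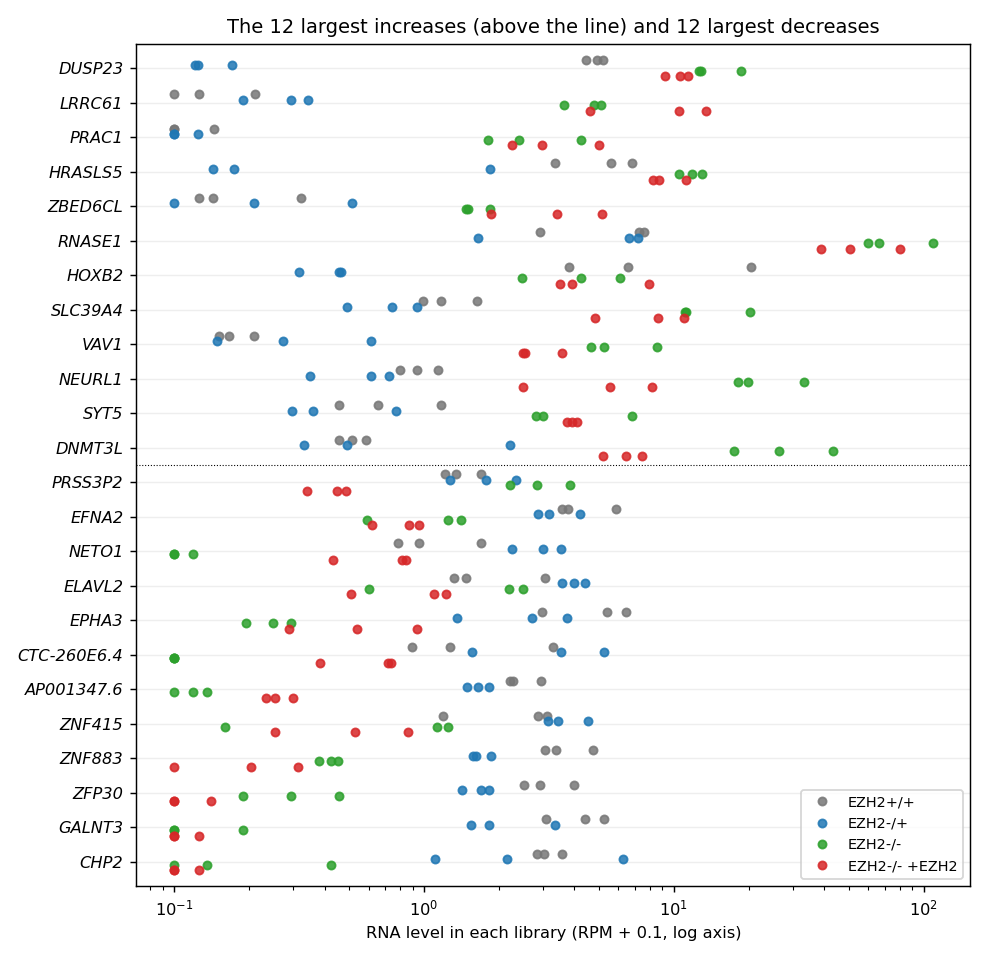
RNA level in each library (RPM + 0.1, log axis) of the 12 genes with the largest increases, above the dotted line, and the 12 with the largest decreases, below it; points are libraries, coloured by genotype. Restored (red) and EZH2-/+ (blue) points do not overlap at any gene, and the EZH2-/- points (green) lie on the side of the restored ones at most genes, with DUSP23 at 12.5 to 18.5 RPM.

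At the start of the HOXB cluster on chromosome 17 the heterozygous cells were the lowest of the 4 genotypes. HOX genes encode homeodomain proteins that set position along the body axis and are classical PRC2 targets. HOXB1 was at 0.735, 0.389 and 0.463 RPM in EZH2-/+ and at 8.79, 3.14 and 3.60 RPM in EZH2-restored cells (log2 fold change 2.95, SE 0.51, adjusted p = 0.00948), and at 13.8, 35.8 and 7.65 RPM in EZH2+/+ and 2.78, 2.97 and 4.87 RPM in EZH2-/- cells. HOXB2 was likewise lowest in EZH2-/+ cells, with 0.367, 0.216 and 0.356 RPM in EZH2-/+ and 7.82, 3.81 and 3.40 RPM in EZH2-restored cells (3.55, SE 0.54, adjusted p = 0.00461). The EZH2-/+ libraries lay below those of all 3 other genotypes for both genes. HOXB3 (3.10) and the antisense transcript HOXB-AS1 (2.66), which overlaps HOXB2 and HOXB3, also rose, and the strandless counts cannot tell them apart. HOXB1 was called under 14 alternatives, HOXB2 under 16 and HOXB3 under 11. Of the 39 HOX genes listed only 4 reached the mean of 1 RPM, and 3 of these rose (0.952% of all 14917 genes did). HOXB1, HOXB2 and HOXB3 were below 1 RPM in every EZH2-/+ library and reached that mean through the other genotypes. The filter thus favoured HOX genes that were higher outside EZH2-/+ cells, and the count says nothing about HOX genes at large. H3K27me3 around the HOXB1 start site fell short of the EZH2-/+ level of 29.8 RPM in EZH2-restored (8.81 RPM), EZH2+/+ (13.9 RPM) and EZH2-/- cells (0.709 RPM), and around HOXB2 the values in this order of genotypes were 41.3, 10.3, 18.3 and 0.574 RPM. HOXB3 was different, with 61.3 RPM in EZH2-/+ and 51.9 RPM in EZH2-restored cells although its RNA rose. HOXB9, with no read in the EZH2-restored libraries, kept 68.2 RPM in EZH2-/+ and 50.1 RPM in EZH2-restored cells.

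The called genes were also followed in the EZH2-/- and EZH2+/+ libraries. These had entered the calls through the shared spread and through the mean of 1 RPM over all 12 libraries. A gene nearly silent in EZH2-/+ cells could reach that mean through high EZH2-/- values, which can raise the shares of higher genes below. Both EZH2-/- and EZH2-restored cells came by way of a transgene-carrying EZH2-/+ line, and the labels do not say whether the EZH2-/- libraries came from cells that still held the transgene, so what these genotypes share through clone or plasmids cannot be told apart from the loss of EZH2. Of the 142 genes higher in EZH2-restored cells, 125 (88%) had all 3 EZH2-/- libraries above all 3 EZH2+/+ libraries, compared with 18.7% of all 14917 genes, and 120 (84.5%) were called higher in EZH2-/- cells, compared with 10.5%. Of the 96 lower genes, 78 (81.2%) had EZH2-/- below EZH2+/+ (31.7% of all genes) and 77 (80.2%) were called lower (21.4%). The median difference between EZH2-/- and EZH2+/+ cells was 1.78 on the log2 scale for the 142 genes (quartiles 1.03 and 2.51), -1.62 for the 96 genes (-2.08 and -0.95) and -0.144 for all genes. EZH2-restored cells lay nearer to EZH2-/- than to EZH2+/+ in mean log2 level at 120 of the 142 and 86 of the 96 genes, and EZH2-/+ cells nearer to EZH2+/+ at 129 and 88. Part of this is fixed by the choice of genes with restored and heterozygous cells far apart. Among all 14917 genes 8531 had restored cells nearer to EZH2-/-, and 10531 had EZH2-/+ cells nearer to EZH2+/+. With the replicate block all EZH2-/- libraries lay above all EZH2+/+ libraries at 83.7% of 338 higher genes, and below them at 70.6% of 506 lower genes.

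Some called genes went against this order. In 5 of the 142 higher genes all EZH2-/- libraries lay below all EZH2+/+ libraries, EZH2 and HOXB1 among them, and in 2 of the 96 lower genes they lay above, PRSS3P2 among them. The mean log2 level was highest in EZH2-restored cells at 19 of the 142 genes, LRRC61 and PRAC1 among them, and in EZH2-/- cells at 111. Among all 14917 genes these numbers were 1336 and 4716. The choice of genes with restored above heterozygous cells means that EZH2-/+ cells could not be highest at the 142. Among the lower genes, where EZH2-/+ cells could likewise not be lowest, 39 had their lowest mean log2 level in EZH2-restored cells and 57 in EZH2-/- cells. Among all 14917 genes these numbers were 3066 and 6328. PRSS3P2 was at 0.386, 0.348 and 0.240 RPM in EZH2-restored cells and at 2.74, 3.74 and 2.11 RPM in EZH2-/- cells. CYP26A1, a retinoic acid-degrading enzyme named here after its values were seen, fell from 128, 167 and 97.3 RPM in EZH2-/+ to 65.3, 44.7 and 47.3 RPM in EZH2-restored cells (-1.30, adjusted p = 0.0466), with 109, 140 and 83.0 RPM in EZH2-/- and 125, 54.1 and 60.5 RPM in EZH2+/+ cells. At CYP26A1 and PRSS3P2 all restored libraries thus lay below all EZH2-/- and all EZH2-/+ libraries. At CYP26A1 the restored libraries overlapped those of EZH2+/+ cells.

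**Figure D4:**
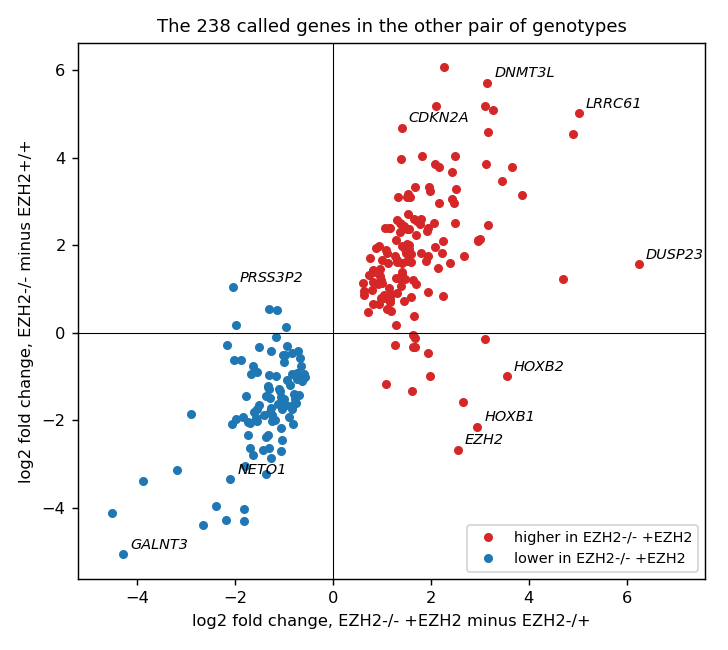
Log2 fold change between EZH2-/- and EZH2+/+ cells (vertical axis) against that between EZH2-restored and EZH2-/+ cells (horizontal axis) for the 238 called genes; the axes share no library. Red points are genes higher and blue points genes lower in EZH2-restored cells. Most red points lie above and most blue points below the horizontal line, with EZH2, HOXB1 and HOXB2 below it on the right and PRSS3P2 above it on the left.

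Lists of genes by function were chosen with earlier results of these data known, so their share of calls is no independent check. In all, 576 genes were in any of 32 lists. Of these 13 rose (0.952% of all 14917 genes did) and 10 fell (0.644% of all), both shares above those of all genes. No gene was called in 18 lists. The total of 23 became 57 with the block (2.27% of all genes rose and 3.39% fell in that fit, and 11 lists were without a call), 6 without EZH2-restored replicate 1, 7 without EZH2-restored replicate 2 and 11 without EZH2-/+ replicate 1. Beside EZH2 no gene of the Polycomb machinery passed: none of 8 accessory subunits of PRC2 (MTF2, log2 fold change -0.33, and PHF1, -0.27) and none of 21 genes of PRC1, the complex that binds H3K27me3 and ubiquitinates H2A (SCMH1, 0.37, and RNF2, -0.31). Of 18 other regulators of histone modification listed, 14 were counted and none passed either. With the block 2 of the 14 fell (3.39% of all genes). ASXL1 was at -0.40 (adjusted p = 0.322, and 0.0433 with the block) and KDM5B at -0.43. Of 9 genes of DNA methylation DNMT3L alone rose.

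Of the core pluripotency genes 1 rose and 1 fell. Over all 14917 genes 0.952% rose and 0.644% fell, and with the block 2.27% and 3.39%. Among the 19 core pluripotency genes, GDF3, a TGF-beta family ligand, rose from 11.6, 10.7 and 8.01 RPM to 52.2, 22.9 and 19.7 RPM (1.51, SE 0.33, adjusted p = 0.0318). ZIC2, a zinc finger factor of the primed state and the neural plate, fell from 119, 85.1 and 103 RPM to 59.6, 43.4 and 50.6 RPM (-1.0, SE 0.23, adjusted p = 0.0414). With the block 3 rose and 3 fell. The central factors did not pass the test, with POU5F1 at 0.28 (adjusted p = 0.485), SOX2 at -0.20 (adjusted p = 0.776) and NANOG at 0.83 (adjusted p = 0.366) on the log2 scale, with NANOG at 46.4, 66.0 and 15.8 RPM in EZH2-/+ cells. Of 10 genes of the naive state, which precedes implantation, 2 rose and none fell, and with the block 3 rose and none fell. Their median was 0.50 beside -0.063 over all genes. The 2 that rose were DNMT3L, also counted in the DNA methylation list, and TFCP2L1, a transcription factor of naive cells. TFCP2L1 went from 1.00, 1.62 and 0.836 RPM to 2.44, 2.92 and 2.36 RPM (1.14, adjusted p = 0.0409). ZIC2 and TFCP2L1 were called under 7 alternatives each and GDF3 under 10.

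Regulators of the germ layers mostly did not pass the test (0.952% of all 14917 genes rose and 0.644% fell). None of 13 primitive streak genes was called, although their median was 0.769; NODAL ranged from 2.78 to 49.1 RPM among the EZH2-/+ libraries and stood at 99.2, 64.5 and 33.0 RPM in EZH2-restored cells (1.98, adjusted p = 0.279), and SP5, a WNT target, differed by 0.83. None of 11 definitive endoderm genes was called (median -0.476, CXCR4 at -1.82 with adjusted p = 0.15, and 0.0248 with the block, KIT at -0.70). Of 9 genes of cardiac and lateral mesoderm BMP4, a ligand that drives mesoderm and amnion, rose from 2.28, 2.90 and 2.72 RPM to 10.5, 7.61 and 6.51 RPM (1.58, SE 0.33, adjusted p = 0.0257), and with the block 2 rose. Only 9 of 29 neuroectoderm genes reached 1 RPM; none was called, their median was -1.17 and 5 had an unadjusted p under 0.05 in the lower direction (7.39% of all genes). PAX6, the eye and forebrain factor, was at 1.69, 0.800 and 2.76 RPM in EZH2-/+ and at 0.386, 0.348 and 0.520 RPM in EZH2-restored cells (-1.70, adjusted p = 0.111), and POU3F1 differed by -1.17. No call was made among 16 genes of limb, mesenchyme and EMT (CDH2 -0.50, PRRX2 0.51), nor among 8 of trophectoderm and amnion (EPAS1 1.02, KRT7 -1.37), where the block called 1 in each direction.

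Among neuronal genes 4 of 21 fell (0.644% of all genes did) and none rose. This list too was chosen with earlier results of these data known, so the count is no independent finding. Among those that fell were NETO1, described above, and the adhesion protein CADM2, which was at 2.57, 2.38 and 2.67 RPM in EZH2-/+ and at 1.11, 1.02 and 1.04 RPM in EZH2-restored cells (-1.19, SE 0.24, adjusted p = 0.0216; 11 alternatives). With the block 6 of the 21 fell (3.39% of all genes). The median of the 21 was -0.189, and they ranged from -2.1 to 0.808.

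Signalling and matrix genes moved in small numbers. Over all 14917 genes 0.952% rose and 0.644% fell, and with the block 2.27% and 3.39%. Of 29 WNT pathway genes 2 fell: SFRP1, a secreted WNT antagonist, from 427, 348 and 472 RPM to 158, 146 and 190.3 RPM (-1.33, SE 0.25, adjusted p = 0.014), and FZD2, a WNT receptor, from 45.6, 40.4 and 35.8 RPM to 21.9, 17.1 and 18.7 RPM (-1.07, adjusted p = 0.00582). With the block 2 rose and 4 fell. BMP4 was the one call of 16 BMP pathway genes, and with the block 2 of them rose. GDF3 was the one call of 17 Nodal and Activin genes, with or without the block. None of 23 FGF genes was called, with FGF4 at 1.43 (adjusted p = 0.0872, and 0.0277 with the block) and SPRY2 at 0.87 (adjusted p = 0.0925, and 0.0125 with the block). With the block 2 FGF genes rose and 1 fell. Of 24 collagen and matrix genes the basement membrane gene NID1 rose (0.91) and COL11A1 (-1.69), COL9A1 (-0.89) and the laminin LAMA1 (-0.83) fell, COL9A1 and LAMA1 under 2 and 3 of the alternatives only; with the block 1 rose and 7 fell.

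Few genes of growth and stress passed the test. Over all 14917 genes 0.952% rose and 0.644% fell, and with the block 2.27% and 3.39%. Of 7 CDK inhibitor genes CDKN2A, which encodes p16 and p14ARF, rose from 1.20, 0.562 and 0.516 RPM to 2.70, 1.79 and 1.72 RPM (1.40, SE 0.32, adjusted p = 0.0404; 6 alternatives), well below its 10.0, 14.1 and 15.0 RPM in EZH2-/- cells. No call was made among 35 mitosis genes, which ranged from -0.364 to 0.146 (BUB1 -0.23, TTK -0.27), nor among 26 DNA replication genes (MCM6 -0.29, POLA2 0.17). Of 20 p53 and apoptosis genes GDF15, a stress-induced cytokine, rose (2.09, adjusted p = 0.0177), and with the block 4 rose and 1 fell. CASP8, an initiator caspase outside the lists and named after its values were seen, rose from 1.71, 2.23 and 1.41 RPM to 8.97, 7.85 and 6.67 RPM (2.09, SE 0.22, adjusted p = 0.000545). Of 28 genes of the ATF4 and unfolded protein responses DDIT3 (1.11, adjusted p = 0.0451) and ASNS, asparagine synthetase (0.72, adjusted p = 0.0326), rose, with a list median of 0.366. With the block 6 of the 28 rose and none fell; DDIT3 was called under 4 and ASNS under 9 alternatives.

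In the remaining lists nothing was called. These were 24 glycolysis genes (PFKM -0.50, adjusted p = 0.165, and 0.0286 with the block; PFKL -0.28), 19 of cholesterol synthesis (MVD -0.34, DHCR7 -0.26), 11 of MHC class I (PSMB8 -0.85, B2M 0.53 with adjusted p = 0.465, and 0.0152 with the block), 20 imprinted genes (PLAGL1 -1.21, PHLDA2 1.1), 5 of germline and meiosis (TDRD12 0.31, DMC1 -0.20), 38 clustered protocadherins (PCDHA10 0.45, PCDHA13 0.37) and 72 ribosomal protein genes (from -0.334 to 0.145). With the block 1 glycolysis gene and 1 imprinted gene fell and 1 MHC class I gene rose (3.39% of all genes fell and 2.27% rose). Outside the lists, and chosen after their values were seen, the MHC class II gene HLA-DQB1 rose from 5.17, 9.12 and 9.93 RPM to 49, 40.1 and 37.8 RPM (2.42, SE 0.30, adjusted p = 0.00143) and HLA-DQA1 by 1.27. These 2 genes belong to families with near-identical members, so their reads may be shared. SMARCA2, the catalytic subunit of a SWI/SNF remodelling complex, rose from 8.4, 5.92 and 7.83 RPM to 28.8, 22.5 and 22.3 RPM (1.72, SE 0.18, adjusted p = 0.000545), and CXADR, a cell adhesion receptor, fell from 64.2, 60.8 and 54.3 RPM to 11.6, 14.7 and 27.3 RPM (-1.83, SE 0.30, adjusted p = 0.00645).

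Histone marks around the start sites were read from 1 column per genotype and mark, the authors' mean of replicate ChIP libraries, so the differences have no replicate check and no test. For each gene the window with the most H3K27me3 in EZH2+/+ cells was taken, and 14884 genes had one. H3K27me3 was at least 2-fold lower in EZH2-restored than in EZH2-/+ cells at 20 of 141 genes whose RNA was higher (14.2%) and at 1.96% of all 14884, and at none of the 141 was it at least 2-fold higher. Of 95 genes with lower RNA 10 had at least 2-fold more H3K27me3 (10.5%, compared with 1.52% of all) and 3 had at least 2-fold less; with a ChIP pseudocount of 1 in place of 0.1 RPM, these counts were 16 of 141, 6 of 95 and 3 of 95. The median difference in H3K27me3 was -0.426 over the 141, 0.0337 over the 95 and -0.174 over all genes on the log2 scale. In EZH2+/+ cells 32.6% of the 141 and 51.6% of the 95 start sites carried H3K27me3, compared with 21.2% of all. With the first listed start site of each gene these shares were 22%, 25.3% and 12.7%.

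Among the genes with higher RNA, SMARCA2 and BMP4 are examples with less H3K27me3 in the restored cells. SMARCA2 had 13.1 RPM of H3K27me3 in EZH2-/+ and 4.72 RPM in EZH2-restored cells, and 12.6 RPM in EZH2+/+ cells. BMP4 had 10.1 and 2.80 RPM, and 9.88 RPM in EZH2+/+ cells. At both, the restored level lay between EZH2-/- (1.09 and 0.588 RPM) and the EZH2-/+ level, as it also did at NEURL1 with 5.94 RPM and TFCP2L1 with 10.1 RPM. CDKN2A was different, with 38.8 RPM in EZH2-/+ and 31.8 RPM in EZH2-restored cells. Among the genes with lower RNA, EFNA2 went from 8.98 to 25.7 RPM, SFRP1 from 7.78 to 16.5 RPM and ZIC2 from 2.51 to 6.29 RPM, whereas ELAVL2 had 24.6 and 26.0 RPM. EFNA2 and SFRP1 thus carried more H3K27me3 in the restored cells than in EZH2+/+ cells (9.26 and 9.39 RPM).

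H3K4me3 differed in the direction of the RNA, set against the median of all genes. Its median difference was 0.0602 over the genes with higher RNA and -0.568 over those with lower RNA, beside -0.414 over all genes. It was at least 2-fold higher at 12 of 141 genes (8.51%, compared with 0.752% of all) and at least 2-fold lower at 12 of 95 (12.6%, compared with 0.356%). HRASLS5 went from 2.5 to 8.54 RPM, LRRC61 from 2.65 to 7.07 RPM, CXADR from 19.2 to 5.41 RPM and NETO1 from 24.9 to 8.10 RPM. In EZH2+/+ cells it stood at 8.18 RPM at HRASLS5 and 9.66 RPM at NETO1. The median differences in H3K27ac, a mark of active promoters and enhancers, were 0.161, -0.409 and 0.0768 for the higher, lower and all genes, and those in H3K4me1 0.103, -0.206 and -0.0892. H3K27ac was at least 2-fold lower at 9 of the 95 genes (9.47%, compared with 0.477% of all) and H3K4me1 at 7 (7.37%, compared with 0.551%). H3K27ac was at least 2-fold higher at 2 of the 141 genes (1.42%, compared with 0.275%) and H3K4me1 at 1 (0.709%, compared with 0.222%). These counts depended on the pseudocount: at 1 RPM no gene of the 141 or the 95 passed 2-fold for H3K27ac, 3 of the 95 were lower and none of the 141 higher for H3K4me1, and for H3K4me3 6 of the 141 were higher and 10 of the 95 lower. In input chromatin 1 of the 95 and none of the 141 was at least 2-fold lower (0.0336% of all), and the medians were -0.0356, -0.0379 and -0.0544.

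**Figure D5:**
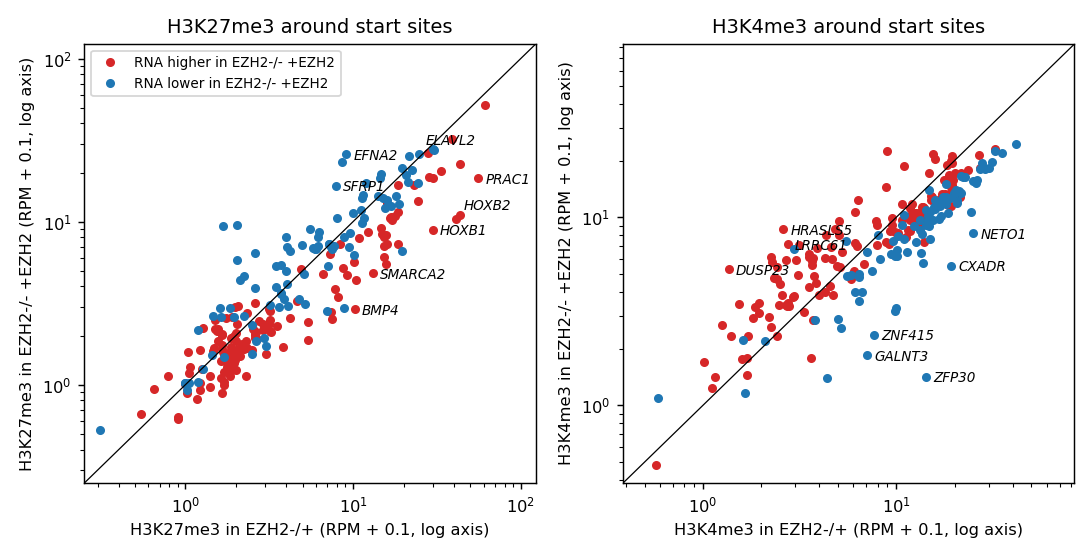
H3K27me3 (left) and H3K4me3 (right) in the 5 kb around start sites of the called genes, EZH2-restored (vertical) against EZH2-/+ cells (horizontal), in RPM + 0.1 on log axes; the line marks equal levels and each point is a gene, with 1 value per genotype. BMP4, SMARCA2, HOXB1 and HOXB2 lie below the line for H3K27me3 and EFNA2 and SFRP1 above it, and ZFP30, GALNT3 and CXADR lie far below it for H3K4me3.

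Markers of other cell types gave no call in any of 7 lists. Embryonic stem cell markers summed to 2930 to 3730 RPM in EZH2-/+ and 3220 to 3850 RPM in EZH2-restored libraries. Fibroblast markers summed to 351 to 509 and 424 to 429 RPM, with DCN and FAP at 0 in both genotypes. Endoderm markers ranged from 13.4 to 439 RPM among the EZH2-/+ libraries and from 34.8 to 58.6 RPM among the restored ones, and neural markers from 10.5 to 33.7 and 7.93 to 17.1 RPM, with HES5 at 0 in both. Mesoderm markers summed to 57.7 to 107 and 76.9 to 169 RPM. Trophectoderm and amnion markers stayed at or below 10.4 RPM and blood and endothelium markers at or below 2.55 RPM. The part of such cells in the neuronal, endoderm and mesoderm values above was not tested.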

How the data were processed

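The series measured RNA in 12 libraries, 3 of each of 4 genotypes of H9 cells, and chromatin in the other samples. The authors trimmed reads with Trim Galore 0.4.0, aligned them to GRCh38 with TopHat2 2.0.12 guided by Ensembl models, counted per gene regardless of strand in SeqMonk and deposited log2 RPM. ChIP reads were aligned with Bowtie2 2.2.5 and deposited as log2 RPM per window of 2.5 kb either side of start sites, replicates of a mark averaged. Reading low values back as multiples of 1 read gave whole reads (100% of values below 1000 reads, tolerance 0.02 read).

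The main test was limma 3.58.1 in R 4.3.3 with a trended prior on log2(RPM + 0.1), all 12 libraries together, 20608 genes, Benjamini-Hochberg adjustment, two-sided; fold changes are on that scale and understate low genes. It was checked on simulated reads that held no replicate effect. That check cannot show how the test behaves where same-numbered libraries deviate together, as they did here. Members and lists were chosen with earlier results of these data known. Genes named were EZH2, the 12 largest called changes in each direction without overlap between libraries, and per list the called genes (at most 4) or the 2 with the smallest p; others are marked as chosen later, and some that the rule named are not reported here. Same-numbered libraries correlated in their deviations from the genotype means (r of 0.658, 0.402 and 0.664 for replicates 1, 2 and 3), so the block was taken as a pairing found in the data; replicates 1 and 3 across genotypes correlated at -0.605 and -0.600. Alternatives changed the pseudocount, filter, scaling, depth, libraries, block and test (limma-voom on recovered reads). Counting intervals are exact binomial. CG counts and promoters came from RefSeq (GRCh38.p14), in which HOXB2, HRASLS5 and CXADR had no entry used here. Sex chromosomes, EZH2 ChIP and the mitochondrial genome were not used here.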

Additional observations from a re-analysis of the deposited data

How the results depend on the processing

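The direction of change and the call held for EZH2 under all 17 alternatives (log2 fold change 2.37 to 2.66, highest adjusted p 0.0128). The counts did not hold as well. Genes higher numbered 93 when only the members were fitted, 338 with the replicate block and 23 in a fit of the 6 libraries alone, and genes lower 51, 506 and 25; without a filter on low values 60 were lower. Leaving out one replicate at a time gave 47 to 159 higher and 23 to 99 lower genes. Leaving out replicate 3 of both genotypes, chosen after seeing the data, gave 170 and 89, of which 113 and 51 were among the main calls. Calls among list members, 23 in the main fit, numbered 13 when only members were fitted, 57 with the replicate block, 7 with 6 libraries, 15 with limma-voom and 6 to 25 without one replicate. Of 43 named and called genes, 43 were called with the block, 41 without a pseudocount, 38 under either rescaling, 30 with limma-voom and 17 with 6 libraries; DMC1 reversed to 0.06 without EZH2-/+ replicate 3, within its error, and ranged from -0.44 to 0.06 without one replicate. The median H3K27me3 difference over all genes was -0.10 with the first listed start site and -0.11 with a ChIP pseudocount of 1 RPM, which gave -0.28 for the genes higher. The cause of these changes was not tested. With 16587860 reads on genes in the shallowest library, genes near 1 RPM rest on few reads.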

Other observations

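Zinc finger genes, grouped by symbol after their values were seen, had no call among higher genes. Of 442 genes named ZNF, ZFP, ZSCAN or ZKSCAN, 7 fell in EZH2-restored cells (1.58%, compared with 0.644% of all 14917 genes), and 5 of these were among 189 on chromosome 19 (2.65%). With the replicate block 1 rose and 23 fell (5.2%, compared with 3.39%). Beyond ZFP30, ZNF883 and ZNF415, ZNF544 fell from 29.0, 27.2 and 19.2 RPM to 8.97, 6.41 and 9.87 RPM (log2 fold change -1.57, limma adjusted p = 0.00314) and ZNF347 from 4.58, 5.96 and 3.93 RPM to 1.08, 1.26 and 1.32 RPM (-1.88, adjusted p = 0.0239), where H3K4me3 around the start site was at 9.86 RPM in EZH2-/+ and 3.18 RPM in EZH2-restored cells.

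Around EZH2 on chromosome 7, 25 genes lay within 2 Mb, with 2 called higher and 1 lower (0.952% and 0.644% of all 14917 genes). LRRC61 and ZBED6CL rose and their neighbour RARRES2, which encodes the adipokine chemerin, fell from 59.6, 57.0 and 42.1 RPM to 18.7, 22.0 and 21.5 RPM (-1.33, adjusted p = 0.0203). LRRC61 and ZBED6CL overlap, so their calls may rest on shared reads. The other 22 ranged from -0.54 to 0.62, with no call.

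By chromosome the median log2 fold change lay between -0.129 on chromosome 17 and -0.0315 on chromosome 16, and the median difference in input chromatin on chromosome 17 was -0.123. On chromosome 21, 10 of 171 genes were higher (0.952% of all genes were), and among its 89 genes averaging 10 RPM or more 1 was. In 248 stretches of 10 Mb the medians ran from -0.44 to 0.113.

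Noncoding transcripts and retroviral genes were also among the changes. LINC-ROR, a long noncoding RNA of reprogrammed cells, was at 16, 13.5 and 7.69 RPM in EZH2-/+ and 60.8, 38.2 and 29.5 RPM in EZH2-restored cells (1.78, adjusted p = 0.00645). ERVH48-1, which encodes the endogenous retroviral protein suppressyn, went from 3.06, 13 and 9.13 RPM to 27.5, 40.5 and 38.3 RPM (2.27, adjusted p = 0.0276) and stood at 121, 153 and 317 RPM in EZH2-/- cells. LINC01108 rose from 6.59, 8.99 and 8.18 RPM to 126, 71.0 and 36.5 RPM (3.12, adjusted p = 0.00127). These genes were chosen after their values were seen.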
